A study of Mus musculus with 2 samples.

Results

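The genes described here are the members of the Serpin family, all genes whose symbol in the gene list is Serpin followed by a clade letter from a to i and a number. The rule found 62 genes among the 28692 listed, and 22 of them had at least 20 UMIs (unique molecular identifiers, each the tag of 1 counted transcript molecule) over both libraries. These 22 genes are described, 10 further genes had 1 to 11 UMIs, and 30 genes had 0. The gene just inside the limit was Serpina11 with 155 UMIs, and the gene just outside was Serpinb8 with 11. The data are 2 droplet single-cell libraries (10x Genomics Chromium) of primary mouse hepatocytes, C57BL/6 strain, from liver, embedded in growth-factor reduced matrigel. Both media held A83-01 at 1 uM, which blocks the TGF-beta receptor, Y27632 at 10 uM, which blocks ROCK kinases, and HGF and EGF at 50 and 25 ng/mL. The expansion group also received 3 uM CHIR99021, an inhibitor of GSK3, and 100 ng/mL of the cytokine TNFa, while the induction group received 3 uM dexamethasone, a synthetic glucocorticoid, and neither of these. The labels give no age, sex, number of animals or time in culture. With 1 library a group, differences between the media could be neither tested nor checked in replicates, and the factors that differ between the media cannot be told apart.

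Serpins are proteins of a common fold, most of which inhibit serine proteases by offering a reactive loop as bait: the protease cleaves the loop and is trapped in a covalent complex. Hepatocytes secrete many of the serpins of blood plasma, among them inhibitors of elastase, thrombin, plasmin and the complement protease C1, and some members bind hormones without inhibiting any protease. The clade b members mostly stay inside the cell.

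The filter on cells (at least 500 genes, at most 25% mitochondrial UMIs) kept 1191 expansion and 1245 induction cells, with 29390000 and 9201887 UMIs. The median cell held 23184 and 6765 UMIs, and 3 UMIs, the floor used here, corresponded to 0.102 and 0.326 CPM (counts scaled to the library's total). All intervals are at 95% and describe the error of counting, not the spread between cultures. The median gene had a log2 ratio of 0.22 (induction over expansion, among 8480 genes with at least 50 UMIs in each library), so calls are also given relative to it. The libraries had 4 cell barcodes in common. All 10 hepatocyte markers were counted in both libraries, with summed levels of 37136 and 59402 CPM. This list includes a member of the family, Serpina1c (7525 and 4737 CPM). Markers of other cells ranged from 0 UMIs to levels near those of hepatocyte genes: 4 of 7 macrophage genes (Ptprc, Adgre1, Clec4f and C1qa) and 4 of 5 neutrophil genes had 0 UMIs in both libraries, and the sums of these lists stayed at or under 1.77 CPM. Of the 8 stellate and fibroblast genes, Col1a1, Col3a1 and Acta2 had 0 UMIs, and Rgs5 (402 and 179 CPM) made up nearly the whole sum. Of the 7 cholangiocyte genes, Krt7 had 0 UMIs and Krt19 had 6 and 1, while Spp1 stood at 1307 and 661 CPM and Sox9 at 103 and 74.8 CPM. The platelet gene Pf4 stood at 19.9 and 2.72 CPM. Of the 7 endothelial genes 4 had 0 UMIs, and the sum was 39.4 and 34.2 CPM.

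The promoters of the copies of Serpina1 are shown because their genes differed in level and in ratio although the sequences before their starts were nearly the same, and that of Serpina3n because its gene was among the most unequal between the media. Each run holds the 250 bases before the RefSeq start (GRCm38.p6), 5′ to 3′ on the gene's strand. Capitals mark AGAACA or its reverse complement TGTTCT (an arm of the palindrome bound by the glucocorticoid receptor), the looser palindrome of GNACA and TGTNC with 3 bases between them, and GTTAAT, an arm of the site of the liver factor HNF1.
Serpina1a, chr12:103863620-103863869, minus strand: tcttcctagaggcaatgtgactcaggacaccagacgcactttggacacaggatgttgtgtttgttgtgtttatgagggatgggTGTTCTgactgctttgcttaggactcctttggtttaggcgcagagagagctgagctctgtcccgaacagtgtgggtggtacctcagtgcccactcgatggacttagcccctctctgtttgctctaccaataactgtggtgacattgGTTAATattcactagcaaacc
Serpina1b, chr12:103738190-103738439, minus strand: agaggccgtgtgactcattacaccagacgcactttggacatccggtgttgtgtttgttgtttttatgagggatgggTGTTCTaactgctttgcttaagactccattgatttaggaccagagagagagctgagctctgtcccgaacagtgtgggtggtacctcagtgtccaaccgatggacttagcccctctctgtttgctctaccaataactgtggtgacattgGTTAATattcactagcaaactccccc
Serpina1c, chr12:103904951-103905200, minus strand: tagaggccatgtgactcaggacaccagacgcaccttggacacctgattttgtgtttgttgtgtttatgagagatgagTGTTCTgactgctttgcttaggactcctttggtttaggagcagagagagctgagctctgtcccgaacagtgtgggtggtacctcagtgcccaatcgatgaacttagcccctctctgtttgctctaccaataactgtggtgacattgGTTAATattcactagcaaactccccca
Serpina1d, chr12:103773634-103773883, minus strand: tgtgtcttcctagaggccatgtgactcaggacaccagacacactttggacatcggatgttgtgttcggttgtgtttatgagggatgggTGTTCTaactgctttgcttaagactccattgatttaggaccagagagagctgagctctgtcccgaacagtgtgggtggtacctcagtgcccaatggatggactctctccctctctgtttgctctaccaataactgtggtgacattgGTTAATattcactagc
Serpina1e, chr12:103956898-103957147, minus strand: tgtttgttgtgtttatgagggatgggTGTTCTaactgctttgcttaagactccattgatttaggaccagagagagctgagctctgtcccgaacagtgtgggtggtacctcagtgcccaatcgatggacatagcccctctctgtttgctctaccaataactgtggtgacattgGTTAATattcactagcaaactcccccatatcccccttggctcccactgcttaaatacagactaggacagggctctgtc
Serpina3n, chr12:104406458-104406707, plus strand: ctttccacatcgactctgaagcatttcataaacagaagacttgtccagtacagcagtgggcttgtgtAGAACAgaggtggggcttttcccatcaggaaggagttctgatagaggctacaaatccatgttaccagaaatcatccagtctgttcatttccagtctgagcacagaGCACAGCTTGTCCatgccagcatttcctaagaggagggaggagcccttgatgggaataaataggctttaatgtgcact

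Of the 22 described genes, 16 had a promoter entry, in 19 windows of 300 bases (250 before and 50 after the start). AGAACA was found on either strand in 7 of these windows, against 18.97% of 32851 windows of the same length: those of all 5 Serpina1 copies, of Serpina3n and of Serpinf2. The looser palindrome, whose fixed letters read the same on both strands, was found in the windows of Serpina3n and Serpinf2 and in 0.475% of all windows. The match of Serpina3n lies 78 bases before the start, and that of Serpinf2, GAACACCGTGTGC, lies just after the start and overlaps the AGAACA there. GTTAAT was found in 7 windows, those of the 5 Serpina1 copies and both of Serpina7, against 7.10% of all windows; it was added to the search after the sequences had been seen. A longer HNF1 pattern, GTTAAT followed after 2 bases by TT and after 2 more by C, was in 0 of the 19 windows and in 0.265% of all. TTCNNNGAA (STAT) was found in 3 of the 19 windows, both of Serpina11 and that of Serpinb6a, and in 8.30% of all. TTGCNNAA (C/EBP) was found in 8 windows and in 10.8% of all. These 8 were those of Serpina1a, Serpina1b, Serpina1d, Serpina1e, Serpina12 and Serpinc1 and both of Serpina7. GGG and TTTCC with 2 bases between them (NF-kB) were found in 1, that of Serpina3n, and in 1.63%. TATAAA was found in 2, both of Serpina7, and in 13.6%. Each was searched on either strand. The windows of Serpina7 overlap, as do those of Serpina11, and the Serpina1 windows are nearly the same, so matches shared within such a group are not separate. The TTGCNNAA match of Serpina1a is a different one: it lies after the start, and those of Serpina1b, Serpina1d and Serpina1e lie before it. All the matches describe the letters only. Aligned with each other over 233 to 298 bases, the windows of the 5 Serpina1 copies were 91.7% to 98.4% identical.

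On GRCm38 the members form a few groups of neighbours. A block on chromosome 12 from 103614786 to 104414329 holds 23 genes, from Serpina10 to Serpina3n, of which 12 were described and 8 had 0 UMIs. The Serpina1 copies lie next to each other within it, from 103728156 to 103958975, and Serpina3k, Serpina3m and Serpina3n follow from 104338486 to 104414329. A block on chromosome 13 (32842092 to 34002794) holds 15 clade b genes, 3 described and 9 with 0 UMIs, and a block on chromosome 1 (106861173 to 107610484) holds 11 clade b genes, 0 described and 10 with 0 UMIs. Serpina7 is the member on chromosome X (139079257 to 139085236). In the annotation Serpina3k and Serpina3m share their first base and overlap, and Serpina1d lies within the span of Serpina1b, so the split of UMIs between such genes is uncertain. The last 500 bases of the longest coding transcript of each described gene were cut into windows of 100 bases. Of these windows, 8.23% of those of Serpina1a, 9.73% of Serpina1c, 2.74% of Serpina1d and 1.25% of Serpina1b were also found in a transcript of another Serpin gene. For Serpina1e, Serpina3k, Serpina3m and Serpina3n the share was 0.

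The family as a whole took nearly the same part of the RNA in both media, while its members went separate ways. All Serpin genes together held 795212 of the expansion UMIs (2.71%) and 225888 of the induction UMIs (2.45%). The 5 copies of Serpina1 made up 95.8% of the family's UMIs in expansion and 90.7% in induction medium. Among the 22 described genes, 10 were at least 2-fold higher in induction medium with an interval excluding a ratio of 1, against 9.12% of the 11956 genes with at least 20 UMIs. At least 2-fold lower was 1 gene, against 5.38% of all genes, and 11 lay within 2-fold. Relative to the median gene the counts were 9 higher (6.63% of all genes) and 2 lower (7.75% of all genes); Serpinf2 left the higher group and Serpinb6b entered the lower. The median log2 ratio was 0.34 over the 22 genes, with Serpina3k, Serpina3m and Serpina3n entered at 3 expansion UMIs, and 0.17 over all genes tested. Serpina3k, Serpina3m and Serpina3n reached 20 UMIs through the induction library alone and so had to differ. Among the other 19 genes, 7 were higher and 1 was lower, with a median of 0.19. Shares and a median over all genes with at least 20 UMIs in each library were not computed, so these values have no like background. UMIs count molecules and were not divided by gene length.

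**Figure D1:**
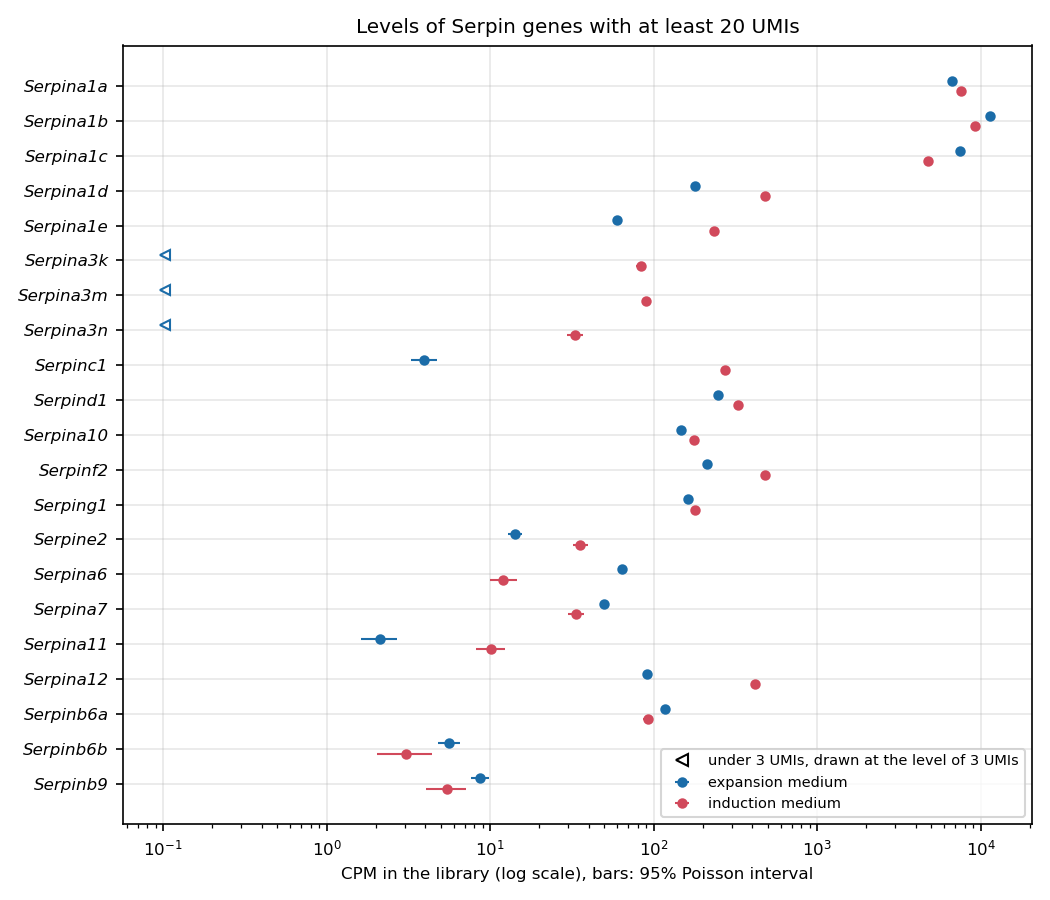
Level of 21 of the 22 described Serpin genes in CPM (log axis) in the expansion (blue) and induction (red) library, with 95% Poisson intervals; open triangles mark genes under 3 UMIs. The Serpina1a, Serpina1b and Serpina1c pairs lie at the right near 10000 CPM, and the 3 Serpina3 genes have triangles in expansion and points from 32.9 to 90.4 CPM in induction medium.

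Alpha-1-antitrypsin, the main elastase inhibitor of plasma, is encoded in the mouse by several copies of Serpina1. The 3 abundant copies stayed within 2-fold, and the 2 rare ones were more than 2-fold higher in induction medium. Serpina1b was the most abundant Serpin gene in both libraries, at 11486 CPM in expansion and 9252 CPM in induction medium. Serpina1c stood at 7525 and 4737 CPM, a log2 ratio of -0.67 (-0.68 to -0.65), and of -0.89 relative to the median gene. For Serpina1b these 2 log2 ratios were -0.31 and -0.53. Serpina1a stood at 6659 and 7571 CPM and so passed Serpina1c in the order of levels; its log2 ratio was 0.19 and turned to -0.03 relative to the median gene. By contrast Serpina1d stood at 180 and 482 CPM (log2 ratio 1.43, 1.37 to 1.48) and Serpina1e at 59.4 and 234 CPM (1.98, 1.89 to 2.07). Serpina1d made up 0.663% of the Serpin UMIs in expansion and 1.97% in induction medium. Summed, the 5 copies stood at 25908 and 22277 CPM, 1.16-fold lower in induction medium, and this sum does not depend on how UMIs were split between the copies.

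The abundant copies were found in nearly every cell, and the rare ones in fewer cells. After each cell was thinned to 2000 UMIs, which left out 0 expansion and 14 induction cells, Serpina1b was found in 99.2% and 98.9% of the cells and Serpina1a in 98.7% and 98.3%. Serpina1d was found in 26.8% of expansion cells (24.3 to 29.4) and 52.3% of induction cells (49.5 to 55.1), and in 84.5% and 78.5% without thinning. Serpina1e was found in 9.74% and 23.7% (51.4% and 42.6% without thinning). In induction medium 67.1% of the Serpina1e UMIs lay in the 124 cells with most of them, against 30.5% for Serpina1a. Across the thinned cells of a library, Serpina1a and Serpina1b had a Spearman correlation of 0.78 in expansion (1191 cells) and 0.76 in induction medium (1231 cells), and the correlations of both with Serpina1c lay between 0.67 and 0.77. Their correlation with albumin (Alb) was lower, from 0.28 to 0.40 in expansion and from 0.16 to 0.24 in induction medium. These genes share sequence and library, and the values are descriptions.

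**Figure D2:**
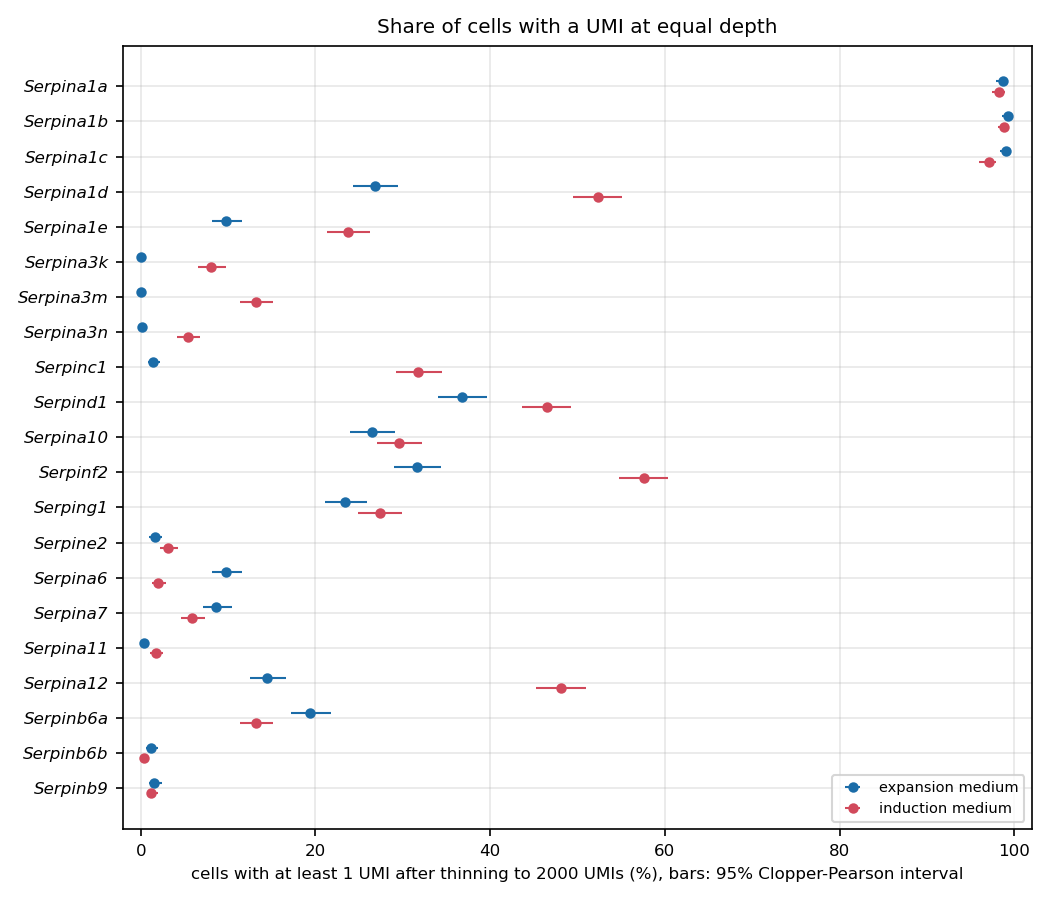
Percent of cells with at least 1 UMI of each of the same genes after thinning every cell to 2000 UMIs, in expansion (blue) and induction (red) medium, with 95% Clopper-Pearson intervals. Serpina1a, Serpina1b and Serpina1c lie above 97% in both media, and Serpinc1 moves from 1.34% to 31.8%.

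No type of cell lacking hepatocyte genes was found in these libraries, so free RNA was gauged with Xist, the RNA of the inactive X chromosome of female cells. Among cells with at least 2 UMIs of Y-linked genes, thinned to 2000 UMIs, 3.51% of 599 expansion cells and 1.10% of 272 induction cells held an Xist UMI, at median depths of 24990 and 7900 UMIs. In cells without Y-linked UMIs the shares were 66.2% and 52.8%, at 22279 and 6411 UMIs. Thinned shares of a few percent are near the gauge and are not read as expression in single cells. Such are the shares of Serpinb6b and Serpinb9, of Serpina6 in induction medium (1.95%) and of Serpinc1 in expansion medium (1.34%). So are those of Serpina11 (0.336% in expansion and 1.71% in induction medium) and Serpine2 (1.60% and 3.09%). The gauge does not cover single cells with many UMIs: the expansion cells with most held 27 UMIs of Serpinb6b, 23 of Serpinb9 and 50 of Serpine2. A gene's own free RNA follows its own level.

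The Serpina3 genes, counterparts of the human acute phase inhibitor alpha-1-antichymotrypsin, were at or near 0 in expansion medium and clearly counted in induction medium. Serpina3m had 0 UMIs with expansion medium and 832 with induction medium (90.4 CPM), at least 886-fold higher when the count of 0 is set to 3 UMIs. Serpina3k had 0 and 768 UMIs (83.5 CPM, at least 818-fold higher). Serpina3n, an inhibitor of granzyme B, had 2 and 303 UMIs (32.9 CPM), a log2 ratio of 8.92 (7.05 to 11.97) from these counts and of 8.33 with the expansion count entered at 3. These ratios move with depth: with cells thinned to 2000 UMIs before summing, all 3 genes entered at 3 UMIs and had log2 ratios of 6.37 (Serpina3k), 6.26 (Serpina3m) and 4.69 (Serpina3n). The family's other Serpina3 genes were at or near 0: Serpina3c had 0 and 1 UMI, Serpina3i 2 and 1, and Serpina3a, Serpina3b, Serpina3f, Serpina3g and Serpina3j had 0 in both. All 10 Serpina3 genes together thus held 4 and 1905 UMIs. By the floor of 3 UMIs, a count of 0 in the expansion library allows a level of up to 0.102 CPM, and the upper end of its exact interval is 0.126 CPM.

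Within induction medium these genes were uneven between cells. Serpina3m was found in 13.2% of thinned cells (28.5% unthinned), Serpina3k in 8.04% (11.8%) and Serpina3n in 5.36% (14.1%); in expansion medium the thinned shares were 0%, 0% and 0.0840%, where 0 of 1191 cells allows, by the same floor of 3, up to 0.252% of cells with a UMI (exact interval up to 0.309%). The 124 induction cells with most Serpina3k held 97.0% of its UMIs, and the cell with most had 49; for Serpina3m the share was 67.3%. Serpina3k was thus spread over fewer cells than Serpina3m at a similar level. Of the 147 unthinned cells with Serpina3k, 105 also had Serpina3m (71.4%, 63.4 to 78.6), against 22.8% of the 1098 cells without Serpina3k. Serpina3n was found in 31.0% of the cells with Serpina3m and in 7.42% of those without. All 3 were found in 42 cells (3.37%) and none in 792 (63.6%), at median depths of 7699 and 6707 UMIs, and the part of depth in this was not tested.

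Inhibitors of coagulation, fibrinolysis and complement ranged from a large ratio to none. Serpinc1 encodes antithrombin, the main inhibitor of thrombin and factor Xa in plasma. Its level was 3.95 CPM in expansion (116 UMIs, 3.26 to 4.73 CPM) and 272 CPM in induction medium (2507 UMIs, 262 to 283 CPM), 69.0-fold higher (log2 ratio 6.11, 5.84 to 6.39), and moved from rank 18 to rank 8 in the family. The log2 ratio of Serpinc1 was 5.26 with cells thinned before summing and 7.11 in cells with Xist. Serpind1, heparin cofactor II, which also inhibits thrombin, stood at 246 and 327 CPM, within 2-fold. Serpina10, which inhibits factor Xa with protein Z, stood at 147 and 177 CPM. The antithrombin gene was therefore far below these 2 inhibitor genes in expansion medium and close to Serpind1 in induction medium.

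Serpinf2 encodes alpha-2-antiplasmin, the main plasmin inhibitor, and stood at 211 and 479 CPM (2.27-fold higher; log2 ratio 1.18, 1.13 to 1.24). Its log2 ratio was 0.96 relative to the median gene, just under 2-fold. Serping1, the C1 inhibitor, stood at 162 and 180 CPM, and its log2 ratio of 0.15 was -0.07 relative to the median gene. Serpinf2 was found in 31.7% and 57.6% of thinned cells and Serping1 in 23.4% and 27.4%.

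The direction of Serpine2 depended on a small cluster of cells. It encodes protease nexin-1, a cell-surface inhibitor of thrombin and plasminogen activators, and stood at 14.2 CPM in expansion and 35.6 CPM in induction medium (2.52-fold higher). Most of its UMIs came from 1 cluster of cells, number 4, led by S100a6, Sprr1a, Hmga2, Serpine2 and Anxa3, which held 46 expansion cells (3.86%) and 90 induction cells (7.23%). There Serpine2 stood at 211 CPM (188 to 237) in expansion and 337 CPM in induction medium, a log2 ratio of 0.67 (0.44 to 0.91), within 2-fold. In all other cells it had 125 and 10 UMIs, 4.46 and 1.21 CPM, a log2 ratio of -1.88 (-2.98 to -0.96). The call of Serpine2 as higher thus turned to lower without this cluster, whose share of cells was larger in induction medium. Cluster 4 had the lowest sum of hepatocyte markers of all clusters (13688 CPM, against up to 99079 CPM in cluster 7). It had the highest sums of cholangiocyte markers (3343 CPM) and of stellate and fibroblast markers (609 CPM, against 558 CPM in cluster 2). Over the whole libraries Spp1 and Rgs5 made up most of these sums, and Krt7, Col1a1, Col3a1 and Acta2 had 0 UMIs. The sums therefore do not name a type of cell. The part of other cells in cluster 4 was not tested.

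Hormone carriers were lower in induction medium, 1 of them by more than 2-fold. Serpina6 encodes the corticosteroid-binding globulin, which carries glucocorticoids in blood. It had 1871 and 111 UMIs (63.7 and 12.1 CPM), 5.28-fold lower in induction medium. In expansion medium 74.0% of its UMIs lay in 119 cells, and 1 cell held 151 UMIs, 8.07% of the total. In thinned cells its share was 9.74% in expansion and 1.95% in induction medium. Serpina7, the thyroxine-binding globulin, stood at 50.0 and 33.7 CPM (log2 ratio -0.57, -0.75 to -0.39), within 2-fold.

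Of the remaining clade a genes, Serpina12 and Serpina11 were higher in induction medium. Serpina12 encodes vaspin, an inhibitor of kallikrein 7 first known from adipose tissue, and stood at 90.7 and 415 CPM (4.57-fold; log2 ratio 2.19, 2.12 to 2.26). Its share of thinned cells was 14.4% (12.5 to 16.6) in expansion and 48.1% (45.3 to 50.9) in induction medium. Serpina11 stood at 2.11 and 10.1 CPM (62 and 93 UMIs; log2 ratio 2.26, 1.78 to 2.75).

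The intracellular clade b was mostly silent. Of 27 listed genes 20 had 0 UMIs, against 8 of 24 in clade a, and 3 were described. Serpinb6a, a cytosolic inhibitor, was the most abundant, at 117 and 92.6 CPM (log2 ratio -0.34, -0.45 to -0.23). Serpinb9, the granzyme B inhibitor, stood at 8.64 and 5.43 CPM, and Serpinb6b at 5.61 and 3.04 CPM. All 3 intervals lay below a ratio of 1 and all 3 ratios were within 2-fold. Serpinb6b was at a log2 ratio of -0.88 and at -1.10 relative to the median gene, which makes it the second lower gene on that scale. Outside cluster 4, Serpinb6a had a log2 ratio of -0.58, and within it of 0.78 (129 and 222 CPM).

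The members with 1 to 11 UMIs were Serpina3c, Serpina3i, Serpina5, Serpinb1a, Serpinb1b, Serpinb8, Serpinb9b, Serpinf1, Serpinh1 and Serpini1. Serpinh1 encodes Hsp47, the collagen chaperone of collagen-secreting cells, and had 1 and 2 UMIs. Serpinf1, which encodes the pigment epithelium-derived factor, lies next to Serpinf2 on chromosome 11 and had 3 and 7 UMIs, against 6202 and 4409 of its neighbour. Serpinb2, an inhibitor of urokinase, had 0 UMIs in both libraries, with and without TNFa in the medium.

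Cells with Xist and cells with Y-linked transcripts were compared because the labels do not say how many animals were pooled. Of the expansion cells, 325 had Xist and no Y-linked UMI and 505 the reverse; of the induction cells, 412 and 503. A further 275 expansion and 22 induction cells had both kinds, and 86 and 308 had neither. Sex and animal cannot be told apart here. The X-linked gene Serpina7 stood at 100 CPM (93.6 to 107) in Xist cells and 20.2 CPM (17.7 to 22.9) in Y cells in expansion medium, and at 75.6 and 11.7 CPM in induction medium. The gap between the classes, log2 2.31 and 2.70, was larger than the gap between the media in either class (-0.41 and -0.79). The Serpina3 genes went the other way in induction medium: Serpina3m stood at 26.1 CPM in Xist cells and 123 CPM in Y cells, Serpina3k at 33.6 and 114 CPM, and Serpina3n at 13.7 and 39.2 CPM. All 3 were nonetheless at 0 UMIs in the Xist cells of the expansion library, and at 0, 0 and 2 UMIs in its Y cells.

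The calls were the same in both classes for all described genes but Serpinb6b, Serpinb9 and Serpinf2. In Xist cells 10 genes were at least 2-fold higher and 3 lower, and in Y cells 9 and 1. How many of all genes were called within each class was not counted, so these counts are not read as a result about the family. Serpina6 stood at 40.4 and 14.01 CPM in Xist cells (log2 ratio -1.53) and at 88.0 and 9.67 CPM in Y cells (-3.19). Serpinf2 reached nearly the same level in both classes in induction medium (467 and 469 CPM) from different levels in expansion medium (117 and 250 CPM), with log2 ratios of 2.00 and 0.91. Serping1 was higher in induction medium in Xist cells (202 and 292 CPM) and lower in Y cells (139 and 124 CPM). Whether the ratios of the 2 classes differ was not tested.

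**Figure D3:**
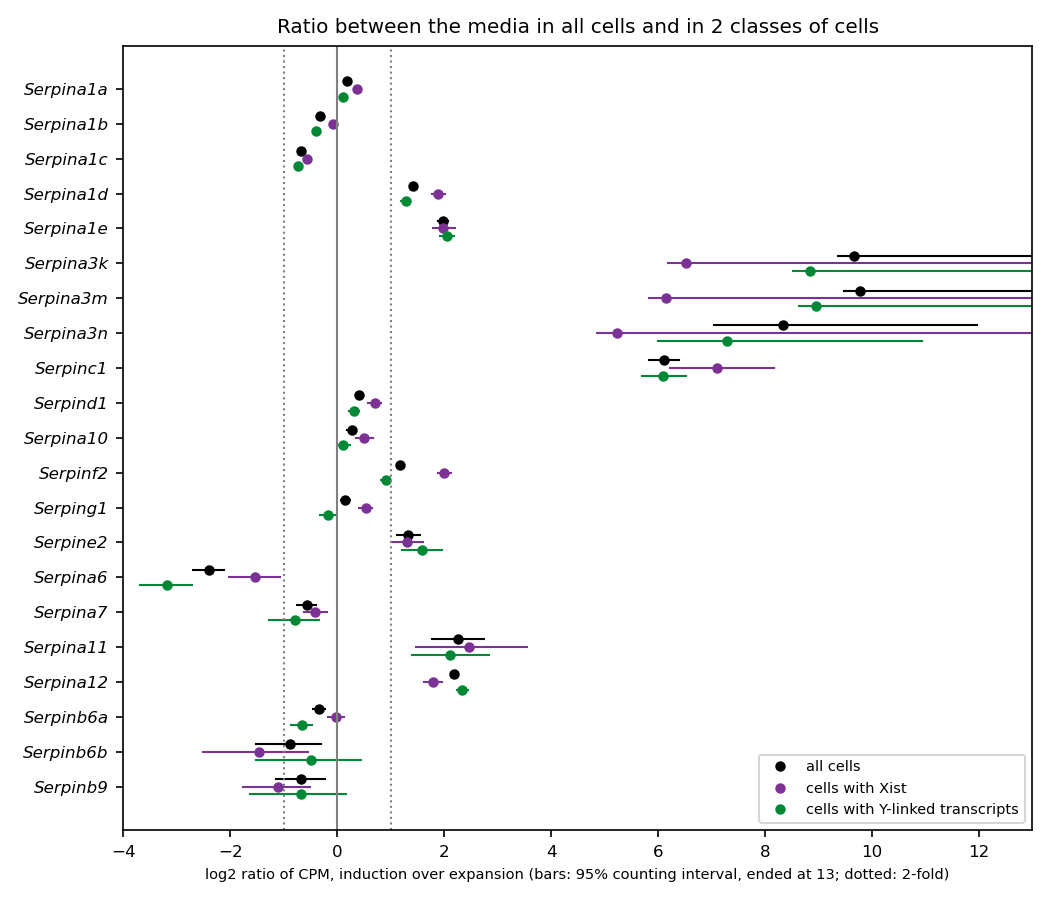
Log2 ratio of CPM (induction over expansion) of the same genes in all cells (black), cells with Xist (purple) and cells with Y-linked transcripts (green), with 95% counting intervals ended at 13; dotted lines mark 2-fold, and an expansion count under 3 UMIs enters at 3. The Serpina3 genes and Serpinc1 lie far to the right in each set of cells, and Serpina6 is the gene furthest to the left.

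Clusters found without any Serpin gene showed where the members were high, and the values that follow rank only clusters with at least 50 cells of a library. The 9 clusters were mostly of 1 library each, so a cluster may reflect its library as well as a kind of cell. In induction medium Serpinc1, Serpina3k, Serpina3m and Serpina1d were highest in cluster 7 (229 cells), whose leading genes were Serpina3k, Serpina3m, Serpinc1, Tff3 and Apoa2. There Serpinc1 stood at 721 CPM, against 11.7 CPM in cluster 4 and 64.0 to 216 CPM in the others. Serpina3n, Serpina10, Serpina11, Serpina12, Serpina1e, Serpinf2 and Serpind1 were also highest in cluster 7. Serpind1 was nearly level there with cluster 8 (396 and 395 CPM). Cluster 7 held 66.4% of the Serpina3k UMIs and 57.3% of the Serpina3m UMIs with 18.4% of the induction cells, and 35.3% of the Serpina3n UMIs. It also had the highest sum of hepatocyte markers.

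Serping1 and Serpina7 had another pattern. In induction medium they were highest in cluster 8 (224 cells, 438 and 96.3 CPM), led by Tat, Cps1, Slco1a4, Cyp3a11 and Bhmt, and in expansion medium in cluster 5 (129 cells, 269 and 176 CPM). Of the cells in these 2 clusters that had either mark alone, 99.5% and 96.6% were Xist cells. Cluster 5 also had the lowest Serpina1b level of these clusters in expansion medium, 4446 CPM, against 14099 CPM in cluster 0, which was led by Slc6a14, Ang, Orm2, Saa3 and Saa1. The 46 expansion cells of cluster 4, too few to be ranked, stood at 1812 CPM. Serpina6 stood at 89.6 CPM in cluster 0 and 92.3 CPM in cluster 1, led by the mitotic genes Ube2c, Top2a, Ccna2, Mki67 and Birc5, and at 21.9 CPM in cluster 2. In induction medium Serpina10 stood at 4.24 CPM in cluster 4 and at 121 to 279 CPM in the other clusters. Serpinb6a ran the other way, with its highest level, 222 CPM, in cluster 4 and its lowest, 34.6 CPM, in cluster 7.

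**Figure D4:**
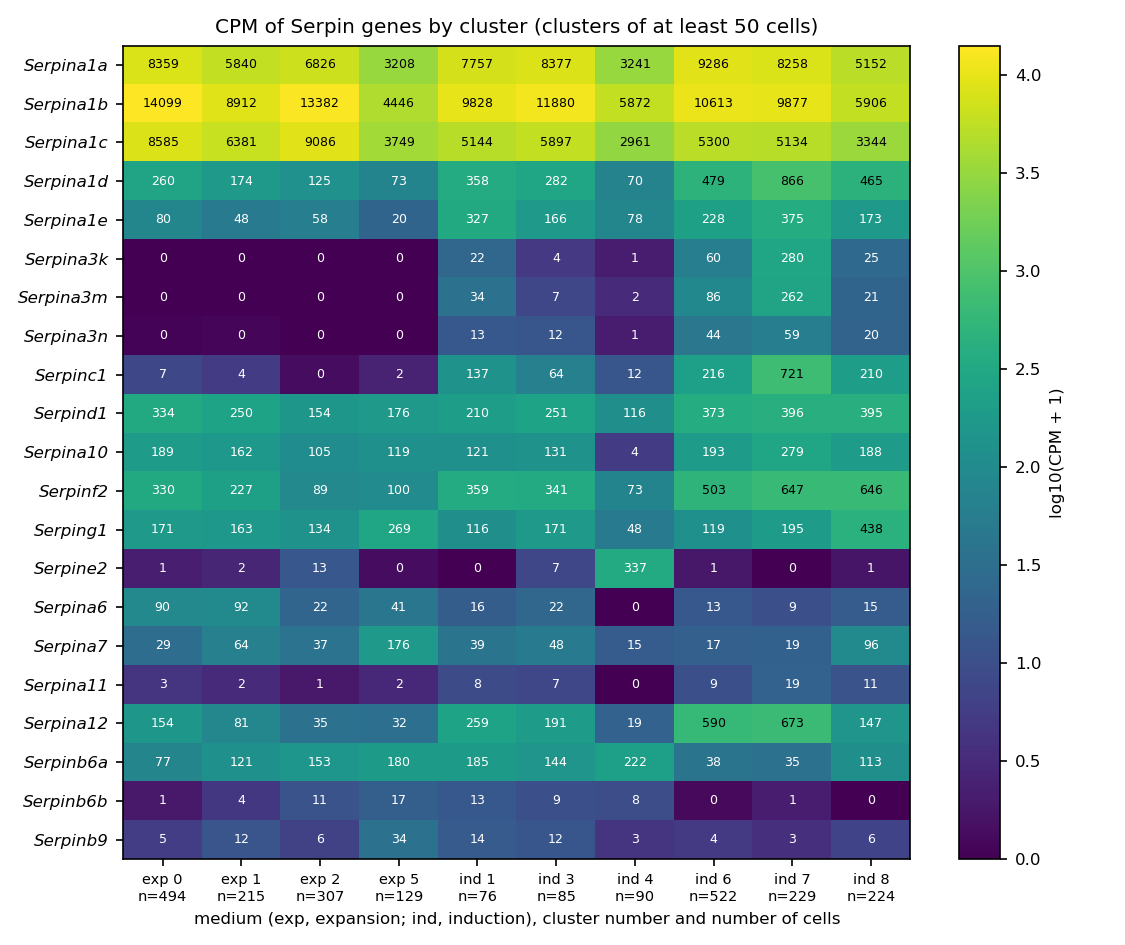
CPM of the same genes (rows) in the clusters with at least 50 cells of a library (columns: medium, cluster number, cells); the numbers are CPM and the colour is log10 of CPM plus 1. Serpine2 is bright in cluster 4 of the induction library (cluster 4 of expansion, with 46 cells, has no column), and the Serpina3 rows are dark in every expansion column.

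The proteases that serpins act on, their cofactors and clearance receptors were set beside the family from a list. Of 35 measured genes of this list 17 were at least 2-fold higher in induction medium and 2 lower, against 9.12% and 5.38% of all genes tested. Relative to the median gene they were 16 and 2, against 6.63% and 7.75% of all genes, with a median log2 ratio of 1.14 on the CPM scale. Plasminogen (Plg), the zymogen whose active form Serpinf2 inhibits, stood at 10.4 and 162 CPM, and prothrombin (F2), the precursor of the target of Serpinc1 and Serpind1, at 266 and 657 CPM. Vitronectin (Vtn), a plasma and matrix glycoprotein, stood at 87.2 and 496 CPM. The lowest by ratio among genes of at least 20 CPM were the syndecan Sdc4 (450 and 372 CPM) and the protease Hpn (338 and 298 CPM). Both lay within 2-fold and are not the 2 genes counted as lower.

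Other inhibitors and the secretory route were counted in the same way, against the same shares of all genes (9.12% higher and 5.38% lower). Of 24 other protease inhibitors and their kin, 10 were at least 2-fold higher and 0 lower (9 and 1 relative to the median gene; median 0.74). Among them Hrg had 10 and 354 UMIs, Fetub stood at 5.17 and 91.1 CPM, and Ahsg at 4141 and 8473 CPM. Hrg reached 20 UMIs through the induction library alone, as the 3 Serpina3 genes did. How many other genes of these lists reached 20 UMIs through 1 library alone was not counted. Timp1 (91.4 and 47.9 CPM) and Spint2 (337 and 236 CPM) were the lowest by ratio and lay within 2-fold. Of 13 genes that fold, export or degrade alpha-1-antitrypsin in the endoplasmic reticulum, 0 passed 2-fold in either direction (median 0.31), with Calr at 705 and 641 CPM, Man1b1 at 20.9 and 20.4 CPM, Edem1 at 62.1 and 91.0 CPM and Sel1l at 36.3 and 58.8 CPM. Of 6 measured collagen genes and collagen enzymes, 2 were at least 2-fold higher, Col18a1 (117 and 265 CPM) and Plod1, and relative to the median gene 0 were. P4hb, the most abundant, stood at 769 and 843 CPM, and the basement membrane collagens Col4a1 and Col4a2 at 78.9 and 64.3 CPM and at 39.2 and 24.8 CPM.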

How the data were processed

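Single-cell libraries of mouse hepatocytes in gel culture were deposited as raw UMI counts, 1 matrix for expansion and 1 for induction medium. Per the submitters' processing notes, the authors used Cell Ranger 2.1.1 and mm10; which annotation they counted on is not stated there. Groups come from the medium in the labels.

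Counts of cells with at least 500 genes and at most 25% mitochondrial UMIs were summed per library and scaled to CPM. Levels have exact Poisson intervals, ratios the exact conditional binomial interval of both counts, and shares Clopper-Pearson intervals, all at 95%. A count under 3 UMIs entered a ratio at 3. Calls needed a 2-fold ratio and an interval that excluded 1, over all genes with at least 20 UMIs. Cells are not replicates, so no p-value was computed. Leiden clusters (scanpy 1.11.5, igraph 0.11.9, resolution 0.6, 20 components, 2000 variable genes, 15 neighbours) were found without Serpin genes. Doublets were kept; Scrublet marked 4 and 2 cells. Positions are from GENCODE M21 (GRCm38), where 61 of the 62 IDs matched, and promoters from RefSeq (GRCm38.p6). Scripts ran in Python 3.11.15 with pandas 2.3.3, scipy 1.17.1 and numpy 2.4.6, and the ratio code was tested on simulated data. The members, gene lists and motifs were chosen with earlier results of these data known. Named were all described members, the lead genes of clusters, and of each list the most abundant gene and the 2 largest ratios each way at 20 CPM or more; Plod1, Alb and the members with fewer UMIs were named after their values were seen. Of the 22 described genes, 1 enters the counts and medians and is not reported here by itself.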

Additional observations from a re-analysis of the deposited data

Results flagged for a closer look

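Serping1 had opposite signs in the 2 classes of cells, with log2 ratios of 0.53 (0.41 to 0.65) in cells with Xist and -0.17 (-0.31 to -0.02) in cells with Y-linked transcripts. The gap is 0.70 on the log2 scale, both intervals exclude a ratio of 1, and the difference was not tested.

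Serpin transcripts were also counted in the barcodes left out by the cell filter, 1980 UMIs in the 17 expansion barcodes and 1242 in the 30 induction barcodes. They made up 1.27% (1.22 to 1.33) and 1.20% (1.13 to 1.27) of the UMIs there, against 2.71% and 2.45% in the cells kept.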

How the results depend on the processing

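The number of Serpin genes at least 2-fold higher was 10 and stayed between 9 and 11 under 15 of 16 alternatives; with the Serpina1 and the Serpina3 genes each summed as 1 gene, an alternative chosen after the data had been seen, it was 6 of 16. The number of lower genes was 1. It was 2 without mitochondrial and ribosomal protein genes in the total, relative to the median gene, after thinning before summing and without the 5% of cells with most UMIs, 3 with equal weight for every cell, in cells with Xist and without cluster 4 (chosen after the data had been seen), and 4 with a 1.5-fold rule. The median log2 ratio of 0.34 was 0.12 in both other scalings, 0.62 in cells with Xist, 0.21 in cells with Y-linked transcripts, 1.26 with no minimum of UMIs, where 10 more genes near the floor enter, and 0.21 with the copies summed. Of the 22 genes, 18 kept their call under the 11 alternatives that recompute a single gene. The exceptions were Serpinb6b, called lower under 7, Serpinb9 under 2, Serpinf2, within 2-fold under 3 (0.91 to 0.96), and Serpine2, which reversed to -1.88 without cluster 4. Depth limits the induction library, where 3 UMIs are 0.326 CPM. No paired analysis was possible because each group has 1 library, and for the same reason no replicate could be left out.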
